A study of Mus musculus with 16 samples.

Results

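RUNX1, RUNX2 and RUNX3 are transcription factors that share a DNA-binding Runt domain, and all bind the same short DNA motif. CBFB, which does not itself bind DNA, pairs with each of them and strengthens that binding. The genes Runx1t1, Cbfa2t2 and Cbfa2t3 encode the ETO family of corepressors, which recruit histone deacetylases to transcription factors. Their founding member is known from leukaemia, where it is fused to RUNX1. RUNX1 is best known as a factor of blood stem cells, RUNX2 of bone and RUNX3 of T cells and neurons. In the fetal ovary, RUNX1 is found in pre-granulosa cells, the supporting cells that surround the germ cells, together with the forkhead factor FOXL2.

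These 7 genes were examined on arrays of newborn XX mouse ovaries through every probe set that the array annotation pairs with 1 of them alone. The rule gave 22 of 45037 probe sets, for 6 of the 18161 genes with a probe set of their own. Runx1 had 6, Runx3 had 2, Cbfb had 1, Runx1t1 had 6, Cbfa2t2 had 3 and Cbfa2t3 had 4. No probe set was paired with Runx2 in the annotation used here, so its level was not analysed here, and of the paralogs only Runx3 could be followed.

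Each array held RNA amplified from 1 ovary freed of its mesonephros, and there were 4 ovaries for each of 4 genotypes. Control ovaries were Runx1+/f and Foxl2+/+ without Cre. Runx1 KO ovaries were Runx1-/f, Foxl2+/+ and Sf1-cre+/Tg. Foxl2 KO ovaries were Runx1+/f and Foxl2-/- without Cre, and the double knockout (DKO) ovaries were Runx1-/f, Foxl2-/- and Sf1-cre+/Tg. A floxed Runx1 allele (f) was thus present in all 4 groups. Sf1-cre deletes it in somatic cells of the gonad, so cells outside the Sf1 lineage keep 1 working copy in the Runx1 KO and DKO. Since those groups alone carried the transgene, loss of Runx1 and presence of Cre cannot be told apart.

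Levels are given as deposited intensities, and differences as differences of mean log2(intensity + 16) between groups. A probe set was called where its adjusted p in the limma fit over all 45037 probe sets was under 0.05. Array medians ran from 134 to 177. As a rough background, 6 genes of the Y chromosome, absent from XX ovaries, had a median mean log2 level of 5.31 (intensity 23.7), although the Sry probe set read up to 514. Foxl2 read 2774 to 4241 in controls, 2641 to 3585 in the Runx1 KO, 484 to 890 in the Foxl2 KO and 569.8 to 839 in the DKO. It fell 4.99-fold in the Foxl2 KO and 5.16-fold in the DKO (limma adjusted p = 1.52e-05 and 8.89e-06), as the labels say. The pre-granulosa sums (10 markers, Foxl2 among them) were 14922 to 21511 in controls, and the germ cell sums (9 markers) were 15951 to 25471. One array stood apart. The sum of 5 red cell markers was 14161 in Control 4 and 290 to 625 in the other 15 ovaries, and that of 10 blood cell markers was 9184 against 1878 to 3606. Differences of Runx1, Runx3, Cbfa2t3, Gfi1 and Rag1 are therefore also given without this ovary, though not for every probe set and comparison.

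The start regions of the RUNX genes hold a stretch that carries the family's own binding motif. In the RefSeq windows (GRCm38.p6) from 250 bases before to 50 after each start, 9 windows covered 6 of the 7 genes, and none was found for Runx1t1. The motif TGTGGT was searched on both strands. At the more upstream start of Runx1, at the start of Runx2 and at the more upstream start of Runx3, it occurred as a pair of copies on the reverse strand, 2 bases apart. Runx2 held a further copy 80 bases before its start. The 30 bases around each pair are printed in the direction of the gene, with capitals for the motif in reverse complement:
Runx1: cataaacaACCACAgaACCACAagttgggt
Runx2: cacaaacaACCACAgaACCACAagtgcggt
Runx3: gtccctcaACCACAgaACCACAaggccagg
These lie at chr16:92826025-92826054 (minus strand), chr17:44814583-44814612 (minus strand) and chr4:135120503-135120532 (plus strand). The pair began 28 bases after the start of Runx1, 23 bases after that of Runx2 and 134 bases before that of Runx3. The Runx1 and Runx2 stretches were identical at 27 of 30 bases, Runx1 and Runx3 at 19, and Runx2 and Runx3 at 21. The stretches were chosen and aligned by the pair, so the bases in capitals match by selection.

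A pair of this kind was rare among the windows. It stood in 7 of 32851 (0.021%), and 3 of these were the RUNX windows above. Of the other 4, the window of Gm16225 overlaps that of Runx3 on the opposite strand. A single TGTGGT was common, in 16.8% of windows. The related motif TGCGGT was in 6.45% of windows, among them that of Runx2, where it ends the stretch above, and the more upstream window of Cbfa2t3. The forkhead motif TGTTTA was in 13.4% of windows. Among the windows of these genes, the more upstream one of Runx1 held it, on the reverse strand, directly before the RUNX pair and without overlap. None of the 3 motifs was found in the windows of Cbfb and Cbfa2t2 or at the downstream starts. A match describes letters in a window and is not evidence that a factor binds there.

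None of the 22 probe sets passed the threshold in any comparison. The share of all probe sets called was 0.0577% in the Runx1 KO against control, 0.904% in the Foxl2 KO, 1.23% in the DKO, 0.0311% in the DKO against the Foxl2 KO, 0.513% in the DKO against the Runx1 KO and 0.00222% in the interaction. The interaction asks whether DKO exceeds Foxl2 KO by more than Runx1 KO exceeds control. The unadjusted limma p was under 0.05 for 8 of the 22 in the Runx1 KO, 7 of them lower, against 6.11% of all probe sets. It was so for 2 in the Foxl2 KO (9.33% of all), 4 in the DKO (10.4%), 0 in the DKO against the Foxl2 KO (4.97%), 3 in the DKO against the Runx1 KO (7.68%) and 3 in the interaction (4.87%). Probe sets of 1 gene share its RNA and are not separate evidence. The median difference of the 22 was -0.23 in the Runx1 KO, -0.04 in the Foxl2 KO and -0.03 in the DKO, beside 0.03, 0.06 and 0.04 over all probe sets. The 3 comparisons with control share the same 4 control ovaries.

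**Figure D1:**
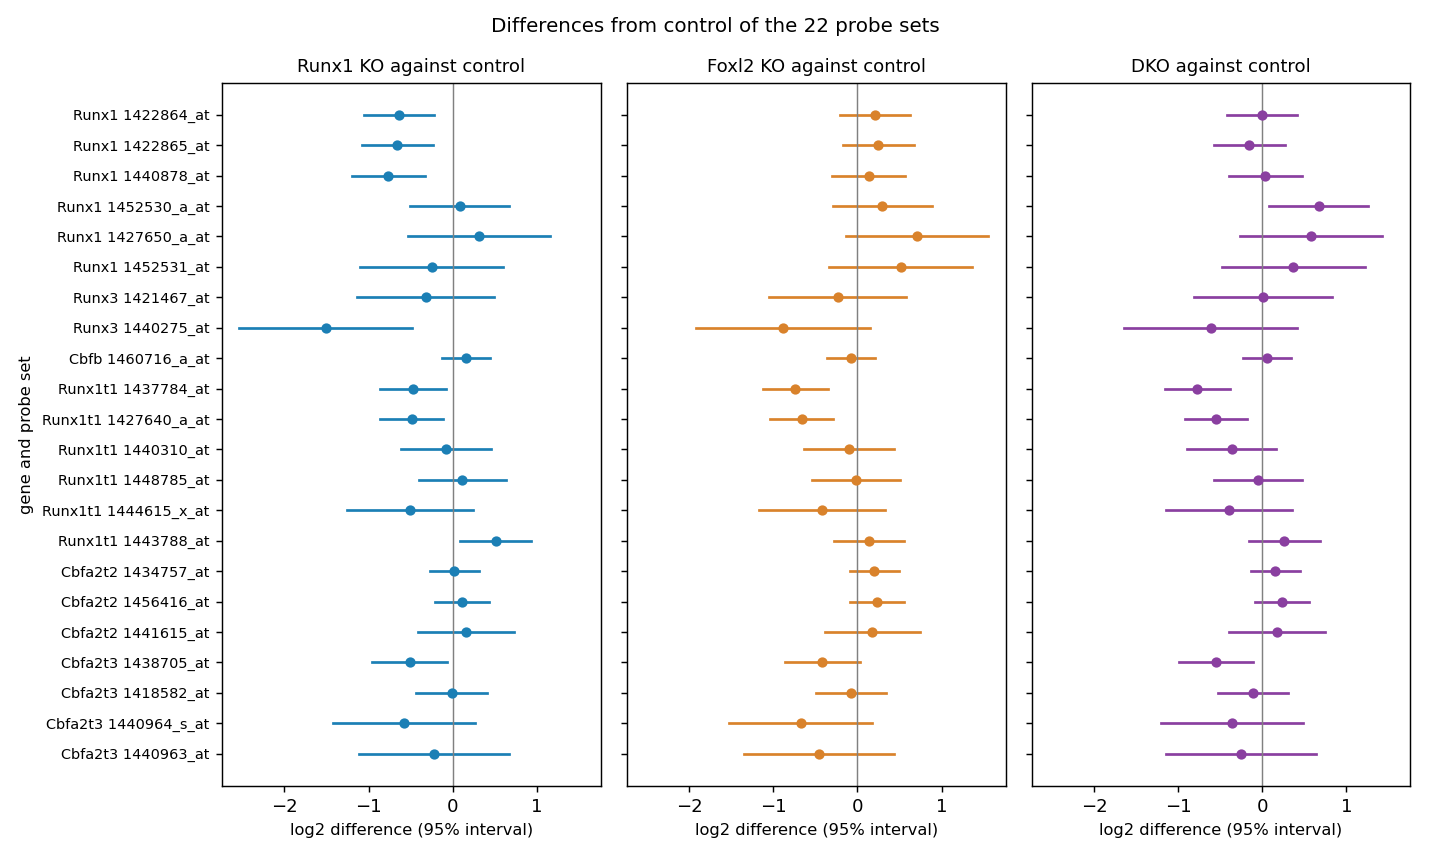
Log2 difference from control (x axis) for each of the 22 probe sets (y axis), with 1 panel for each knockout group. Points are limma estimates and lines their 95% confidence intervals. In the Runx1 KO the upper 3 Runx1 probe sets lie left of 0, at -0.64, -0.66 and -0.76, and in the DKO they lie at -0.01, -0.15 and 0.03.

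Runx1 itself was read most strongly by probe set 1422864_at. In controls it read 2238, 2142, 2359 and 2204. In the Runx1 KO it read 1701, 1221, 932 and 2127, so that all 4 lay below all 4 controls but ovary 4 by only a little. In the Foxl2 KO it read 2455, 2356, 3054 and 2555, and in the ovaries labelled DKO it read 2370.3, 2111, 2227 and 2205. The DKO values thus covered about the same range as the controls.

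The mean log2 level of 1422864_at was 11.1 ± 0.06 in controls, 10.5 ± 0.52 in the Runx1 KO, 11.3 ± 0.16 in the Foxl2 KO and 11.1 ± 0.07 in the DKO (SD, n = 4). The Runx1 KO difference from control was -0.64 ± 0.20 (SE, 95% interval -1.06 to -0.23), or 1.56-fold lower. Its limma adjusted p was 0.530. Without Control 4 this difference was -0.65 (limma adjusted p = 0.768). The Foxl2 KO differed from control by 0.21 (-0.20 to 0.63, adjusted p = 0.820) and the DKO by -0.01 (-0.42 to 0.41, adjusted p = 0.996). From the highest mean to the lowest, the order was Foxl2 KO, control, DKO and Runx1 KO. The intervals of the Foxl2 KO against control and of the DKO against control both held 0. The DKO exceeded the Runx1 KO by 0.64 (0.22 to 1.05), with an adjusted p of 0.264.

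A pair of further Runx1 probe sets followed the same pattern over the 16 ovaries, with Pearson r of 0.93 (1422865_at) and 0.89 (1440878_at) to the first. Probe set 1422865_at read 1055, 1019, 813 and 960.2 in controls and 744, 448, 444 and 879 in the Runx1 KO. Probe set 1440878_at read 269.9, 315, 274 and 289.9 in controls and 198, 112, 130.5 and 236 in the Runx1 KO. Ovaries 2 and 3 of the Runx1 KO were lowest and ovary 4 highest on all 3 probe sets. The pre-granulosa marker sums of Runx1 KO ovaries 1 to 4 were 17325, 13939.5, 14883 and 18530.4, again lowest in ovaries 2 and 3 and highest in ovary 4. Their germ cell sums were 20952, 28469.8, 26892 and 22007, highest in ovaries 2 and 3. The part of these cells in the Runx1 level was not tested. In the DKO these probe sets read 769 to 981 and 273 to 308. Their Runx1 KO differences were -0.66 and -0.76 (limma adjusted p = 0.530 and 0.404).

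**Figure D2:**
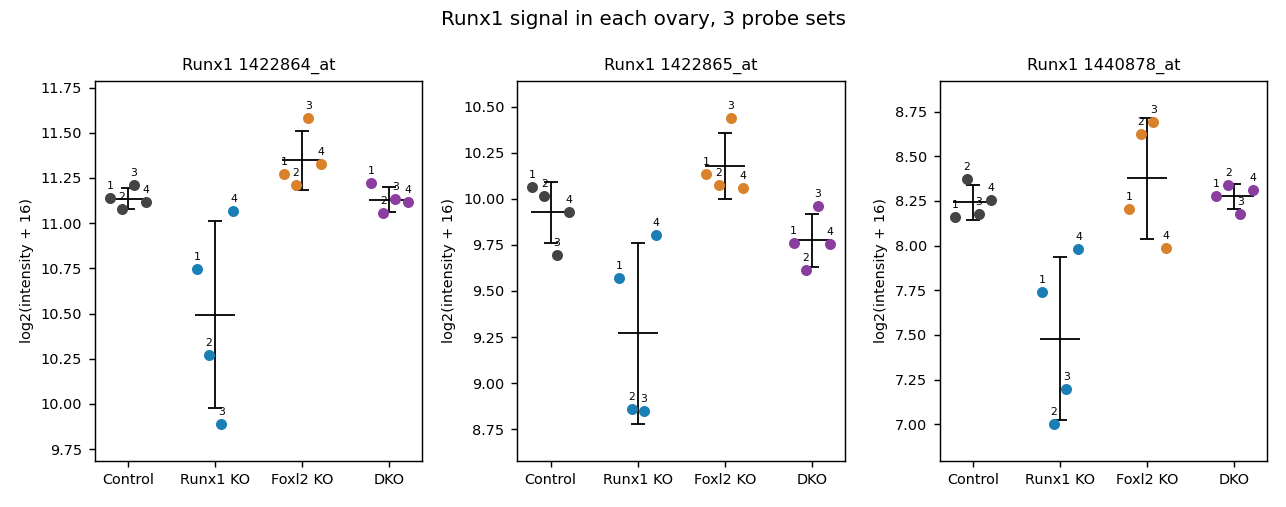
Runx1 signal as log2(intensity + 16) in each ovary for the 3 probe sets that moved together. Points are single ovaries numbered by replicate, bars the mean ± SD of 4. Runx1 KO ovary 4 sits near the controls, and the DKO ovaries sit among, just above or just below them.

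Without Runx1 KO ovary 4, the differences of the 3 probe sets in the Runx1 KO were -0.83, -0.84 and -0.93, with limma adjusted p of 0.186, 0.214 and 0.189. In that fit 1440878_at was called in the DKO against the Runx1 KO (0.96, adjusted p = 0.0431). The probe sets 1422864_at and 1422865_at were not (limma adjusted p = 0.0505 and 0.156). With all ovaries none of the 3 was called in that comparison (1422864_at 0.264, 1422865_at 0.514 and 1440878_at 0.126). Where these probes lie relative to the part of Runx1 that Cre removes was not given in the sources used here. By their labels, the Runx1 KO and DKO carry the same Runx1 alleles and Cre and were read by the same probes. Their mean Runx1 levels nevertheless differed as given above, though without a call when all ovaries were fitted. Throughout, DKO stands for ovaries with that label, whose Runx1 signal was at the control level. RNA of the whole ovary was measured, so fewer cells of a type and less RNA per cell cannot be told apart.

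The other 3 Runx1 probe sets were dim, from 38.4 to 354, and followed the first less well (r = 0.45, 0.03 and 0.61). Their Runx1 KO differences were 0.08, 0.32 and -0.25 and their DKO differences 0.67, 0.58 and 0.37, all with intervals over 1 log2 unit wide and adjusted p of at least 0.396. In the Runx1 KO, 1 of them lay below 0 as the brighter 3 did and the other 2 above.

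Across the 3 comparisons with control, 3 probe sets of these genes in the Runx1 KO lay below every control ovary, namely 1422864_at and 1440878_at of Runx1 and 1440275_at of Runx3 (1.33% of all probe sets did so). One more, 1443788_at of Runx1t1, lay above every control at 7.17 to 12.8 against 0.510 to 4.14, where 2.18% of all did, and all its values were below the Y-linked background. In the Foxl2 KO there were 2 below every control, both of Runx1t1 (1.94% of all), and in the DKO 1, again of Runx1t1 (2.43%). In the DKO against the Foxl2 KO, 1422865_at of Runx1 was lower in all 4 ovaries (1.84% of all). In the DKO against the Runx1 KO, 1440878_at of Runx1 and 1440275_at of Runx3 were higher in all 4 (2.47%).

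Runx3 was followed to see whether the paralog rose where Runx1 was lost. Probe set 1421467_at read 15.4, 38.5, 13.5 and 57.9 in controls and 13.3, 17.1, 30.5 and 18.0 in the Runx1 KO. It read 9.85, 36.2, 8.54 and 43.1 in the Foxl2 KO and 15.3, 47.5, 10.8 and 56.3 in the DKO. All groups overlapped and straddled the Y-linked background. The differences from control were -0.32 (95% interval -1.14 to 0.49), -0.23 (-1.05 to 0.58) and 0.01 (-0.80 to 0.83), with limma adjusted p of 0.936, 0.908 and 0.996. On this log2(intensity + 16) scale, a rise of up to 1.41-fold in the Runx1 KO or 1.77-fold in the DKO lies within these intervals. Without Control 4, the highest control here, the differences were -0.07, 0.02 and 0.26 (SE 0.39 each). Larger rises than those given are then within the error.

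Runx3 probe set 1440275_at read 19.3, 20.9, 38.2 and 258 in controls, and the 258 belonged to Control 4, the ovary with the high blood and red cell sums. It read 16.2, 11.8, 1.505 and 2.92 in the Runx1 KO, below every control and below the Y-linked background. It read 13.4 to 37.2 in the Foxl2 KO and 17.8 to 38.9 in the DKO. The Runx1 KO difference was -1.51 ± 0.49 (limma adjusted p = 0.577), and without Control 4 it was -0.83 ± 0.27 (adjusted p = 0.744). In the DKO it was -0.61, and 0.07 without Control 4. Neither Runx3 probe set was higher than control beyond its error in the Runx1 KO or in the ovaries labelled DKO, whose Runx1 signal was itself at the control level.

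Cbfb, the common partner, was bright and steady. Probe set 1460716_a_at read 2574, 3123, 3517 and 2738 in controls and 3578, 3057, 3185 and 3469.9 in the Runx1 KO. It read 2899, 2970.0, 2740.2 and 2691 in the Foxl2 KO and 3246, 3275, 3364 and 2525 in the DKO. Each knockout group overlapped the controls, while all 4 Runx1 KO ovaries lay above all 4 Foxl2 KO ovaries, a pair that was not among the comparisons tested. The differences from control were 0.16 (-0.13 to 0.45), -0.07 (-0.36 to 0.22) and 0.06 (-0.23 to 0.34), with limma adjusted p of 0.905, 0.923 and 0.939. These are the narrowest intervals among the 22 probe sets, and they hold changes of up to 1.36-fold.

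**Figure D3:**
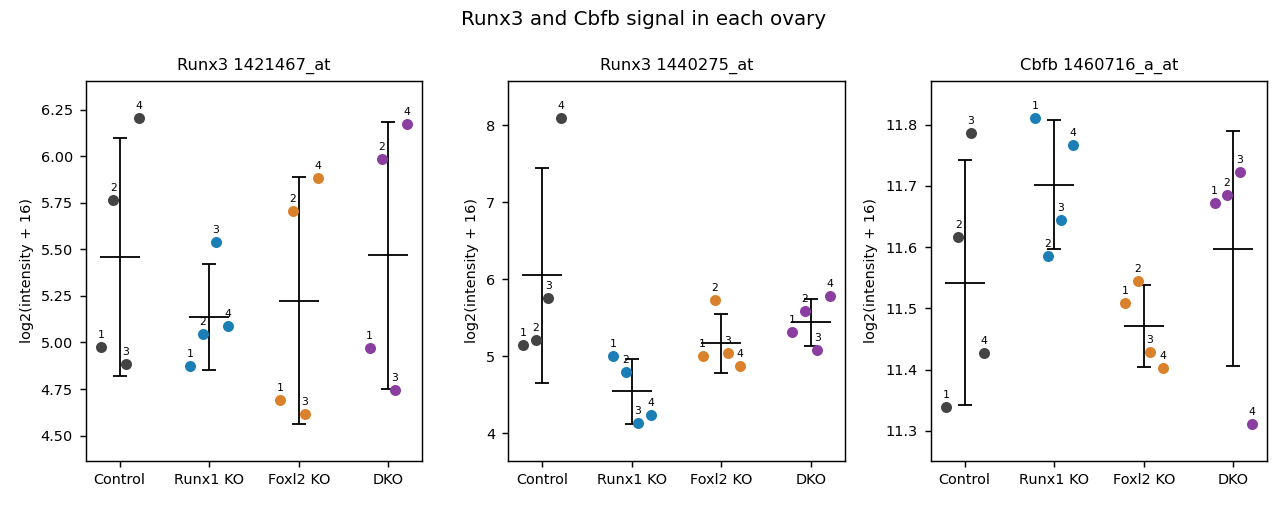
Runx3 and Cbfb signal as log2(intensity + 16) in each ovary, numbered by replicate, with bars for the mean ± SD of 4. Control 4 stands apart on Runx3 1440275_at at an intensity of 258, and on Cbfb each knockout group overlaps the controls, with all values between 2525 and 3578.

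Of the ETO family, Runx1t1 had the largest differences from control in the DKO and Foxl2 KO. Its brightest probe set, 1437784_at, read 1147, 1157, 954 and 1144 in controls and 743, 689, 679.7 and 1105 in the Runx1 KO. It read 624, 561, 728 and 708 in the Foxl2 KO and 525, 656, 549.6 and 869 in the DKO. All Foxl2 KO and all DKO ovaries lay below every control, while in the Runx1 KO ovary 4 lay among the controls. The difference was -0.74 ± 0.18 in the Foxl2 KO (1.67-fold lower, limma adjusted p = 0.0842) and -0.77 ± 0.18 in the DKO (1.70-fold lower, adjusted p = 0.0554). In the Runx1 KO it was -0.47 ± 0.18 (adjusted p = 0.712). None of the 3 passed the threshold.

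The call on 1437784_at turned with the settings. It passed in both the Foxl2 KO and the DKO when arrays were set to equal medians (adjusted p = 0.0184 and 0.0147). Without Runx1 KO ovary 4 it also passed in both (0.0406 and 0.0238), and without DKO ovary 4 it passed in the DKO (-0.92, 0.0214). Cell type marker scores differed between these groups. The pre-granulosa score was the mean over 10 markers of the log2 deviation from each marker's own mean. It was 0.19 to 0.74 in controls and 0.05 to 0.38 in the Runx1 KO. In the Foxl2 KO it was -0.57 to -0.10, and in the DKO -0.56 to -0.37. The 10 include Foxl2, the deleted gene, so part of the score's fall was set by the design. Of the 10, 3 were called lower in the Foxl2 KO and 5 in the DKO, none higher. Others of the 10, not called, read higher. Rspo1 read 2153 to 2855 in controls, 3061 to 4196 in the Foxl2 KO and 3419 to 4116 in the DKO. Wnt4 read 404 to 742, 657 to 897 and 785 to 1110 in the same groups. Irx3 overlapped the controls, at 728 to 1794, 1282 to 1744 and 1216 to 1552. The list thus did not fall as a block. The score of 4 mesonephric duct markers was -0.87 to -0.25 in controls, -0.52 to 0.11 in the Runx1 KO, -0.05 to 0.31 in the Foxl2 KO and 0.26 to 0.57 in the DKO. Of these 4, Pax8 rose in the Foxl2 KO and DKO (3.33-fold and 4.68-fold, limma adjusted p = 0.0244 and 0.00276), and the other 3 were not called. Cdh16 read 83.2 to 140 in controls, 103 to 181 in the Foxl2 KO and 157 to 212 in the DKO. Emx2 did not rise, at 2231 to 2997, 2280 to 2593 and 2318 to 2858. Lhx1 read at most 30.4, about the Y-linked background. Whether pre-granulosa or duct cells had a part in the Runx1t1 level was not tested. The DKO differed from the Foxl2 KO by -0.03 (-0.42 to 0.36), and the interaction was 0.44 (-0.11 to 0.99, adjusted p = 0.998).

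A further Runx1t1 probe set, 1427640_a_at, had r = 0.76 to the first. It read 379, 362, 298 and 239 in controls, 192 to 258 in the Runx1 KO, 156 to 225 in the Foxl2 KO and 185 to 279 in the DKO. Its differences were -0.49, -0.66 and -0.55 (limma adjusted p = 0.668, 0.112 and 0.197). The remaining 4 were dimmer, from 0.122 to 191, and their differences ran from -0.51 to 0.51 with adjusted p of at least 0.683. They shared no direction.

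The other ETO genes differed less. Cbfa2t2, a corepressor known for its part in germ cells, read 859 to 1143 in controls on 1434757_at, 870.3 to 1077 in the Runx1 KO, 961 to 1343 in the Foxl2 KO and 1034 to 1216 in the DKO. Its differences were 0.02 (-0.27 to 0.31), 0.20 (-0.09 to 0.49) and 0.16 (-0.13 to 0.45), and those of its other 2 probe sets ran from 0.11 to 0.24. None passed (lowest adjusted p 0.652). All 9 values were above 0, but without Control 4 the 3 in the Runx1 KO turned to -0.05, -0.006 and -0.008.

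Cbfa2t3, a corepressor of blood and endothelial cells, read 391, 410.2, 276 and 509 in controls on 1438705_at. It read 347, 182, 236 and 338 in the Runx1 KO, 229 to 316 in the Foxl2 KO and 238 to 301 in the DKO. The groups overlapped through Control 3, and Control 4 was highest. The differences were -0.51, -0.42 and -0.55 (limma adjusted p = 0.730, 0.578 and 0.338), and without Control 4 they were -0.39, -0.29 and -0.42. The 8 endothelial markers summed to 3535 to 5272 in controls and 3199 to 4536, 3995 to 4661 and 3743 to 4949 in the 3 knockout groups in the same order, and their part in the result was not tested. The 3 dimmer probe sets had differences from -0.68 to -0.01, all below 0.

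**Figure D4:**
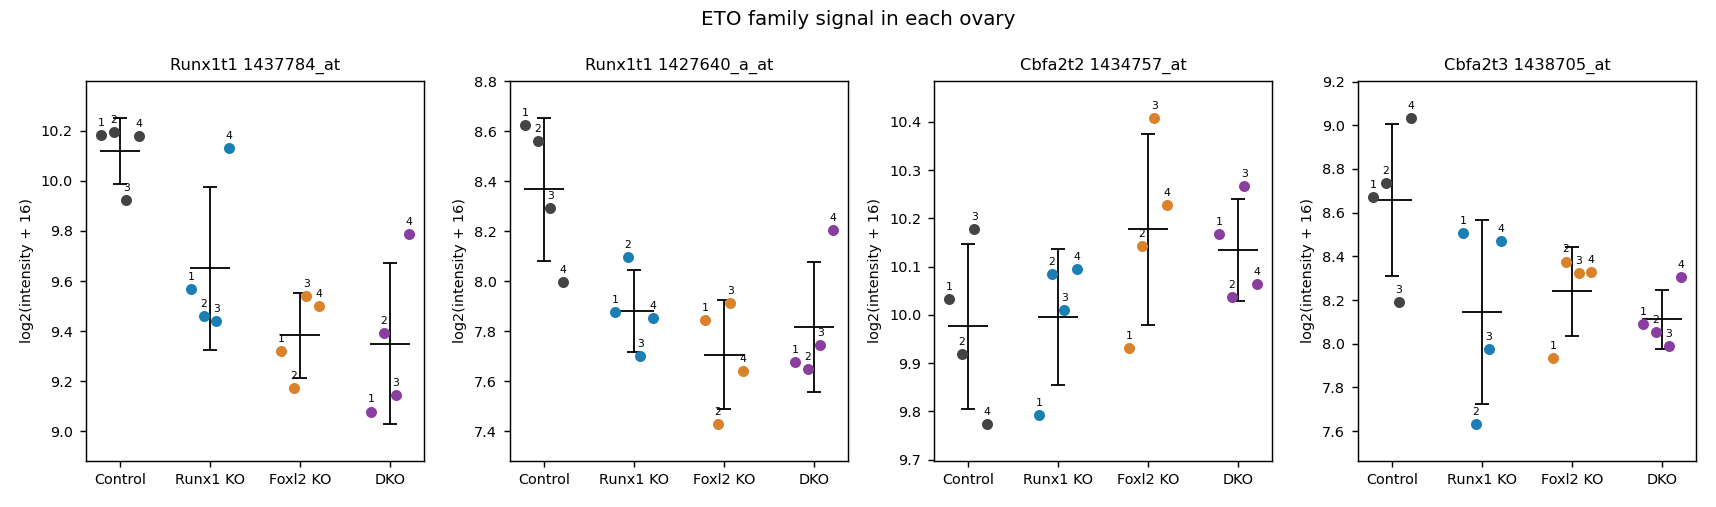
ETO family signal as log2(intensity + 16) in each ovary for the 2 brightest Runx1t1 probe sets and the brightest of Cbfa2t2 and Cbfa2t3, numbered by replicate, with bars for the mean ± SD of 4. On Runx1t1 1437784_at the 4 Foxl2 KO ovaries (561 to 728) and the 4 DKO ovaries (525 to 869) sit below the controls (954 to 1157).

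The genes most like each member were found by Pearson correlation of log2 level over the 16 ovaries, among 29807 probe sets, as a description that carries the shared arrays and genotypes. Pogz (0.91), Alcam (0.88) and Pcf11 (0.88) were most like Runx1, and B3gat1 (0.89), Apold1 (0.88) and Col8a1 (0.85) most like Runx1t1. Ints6l (0.90), Hipk2 (0.84) and Pdzd8 (0.84) were most like Cbfa2t3, and Taf1d (0.87), Stx17 (0.82) and Gas2l1 (0.80) most like Cbfa2t2. For Cbfb they were Gstt1 (0.87), Tmem176b (0.83) and Pabpc4l (0.83). Runx3, near background, reached only 0.79 (Wdr25), 0.78 (Gm2788) and 0.76 (Ube2w).

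Among genes of proteins that work with RUNX factors (9 corepressors, 13 coactivators and partners and 8 modifiers), 1 was called. It was called in the Foxl2 KO and DKO, where 0.904% and 1.23% of all probe sets were. The lists were chosen with earlier results of these data known, and 1 call is not a result about RUNX partners as a group. Smad3, a transducer of TGF-beta and activin signals that binds RUNX proteins, read 5549, 5326, 4690.2 and 3402 in controls and 5889, 5501, 4105 and 4409.9 in the Runx1 KO. It read 2506, 2769, 2688 and 2736 in the Foxl2 KO and 2206, 2464, 2475 and 2206 in the DKO, all below every control. It fell by 0.80 ± 0.16 on the log2 scale in the Foxl2 KO (1.74-fold, limma adjusted p = 0.0253) and by 0.99 ± 0.16 in the DKO (1.99-fold, 0.00364). It also fell in the DKO against the Runx1 KO (-1.07, 0.00382), while the Runx1 KO differed from control by 0.08 (0.968). The interaction was -0.27 (adjusted p = 0.998). The pre-granulosa marker sums were 14922 to 21511 in controls, 11060.2 to 15294 in the Foxl2 KO and 12937 to 13742 in the DKO. They include Foxl2, the deleted gene, at 2774 to 4241, 484 to 890 and 569.8 to 839 in the same groups. Not all of these markers were lower, as given above, and the part of pre-granulosa cells in the Smad3 fall was not tested.

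Smad3 was 1 of 13 coactivators and partners measured, and the other 12 were not called against control. In the order Runx1 KO, Foxl2 KO, DKO, their list had medians of -0.01, 0.03 and 0.03, beside 0.04, 0.05 and 0.04 over all genes. The Smad3 call in the DKO stood whichever ovary was left out. That in the Foxl2 KO was lost without Control 1, 2 or 3 or any 1 of the Foxl2 KO ovaries (adjusted p up to 0.0867), with differences of -0.95 to -0.71 over the 16 fits.

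None of the 9 corepressors measured was called against control. The smallest p among them was that of Tle3, a Groucho corepressor, in each comparison, with differences of -0.55, -0.55 and -0.62 (limma adjusted p = 0.779, 0.489 and 0.348). None of the 8 modifiers was called. Pim1, a kinase, had the smallest p in the Runx1 KO (-0.33, 0.797), and Cdk6, a cell cycle kinase, in the Foxl2 KO and DKO (-0.31 and -0.28, 0.565 and 0.568). None of the 8 bone targets of RUNX2 was called either. Alpl, alkaline phosphatase, had the smallest p there, at 0.27, 0.60 and 0.77 (0.893, 0.245 and 0.0755). List medians over the 3 comparisons were 0.02, 0.03 and -0.01 for corepressors, -0.10, -0.17 and -0.07 for modifiers and 0.09, 0.03 and 0.16 for bone targets.

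Of 12 genes known as RUNX1 or RUNX3 targets in blood cells, the same 2 were called in each knockout group and both fell. Over all probe sets, 0.0577% were called in the Runx1 KO, 0.904% in the Foxl2 KO and 1.23% in the DKO. The list was chosen with earlier results of these data known, so its calls are not independent support. The 3 comparisons share the same control ovaries, so the repeat is not separate evidence. Gfi1, a repressor of blood progenitors, read 109.7, 108, 76.9 and 209.8 in controls and 27.3, 29.5, 26.02 and 56.1 in the Runx1 KO. It read 37.6 to 54.4 in the Foxl2 KO and 44.2 to 50.4 in the DKO, with no overlap with the controls. It fell by 1.44, 1.14 and 1.08 on the log2 scale (limma adjusted p = 0.0275, 0.0259 and 0.0284). Without Control 4 the differences were -1.19, -0.89 and -0.83 (0.0410, 0.0490 and 0.0553), the last no longer called. Runx1 KO ovary 4, in which Runx1 was near the controls, also had the highest Gfi1 of its group. All knockout values of Gfi1, and that of Control 3, lay below 93.1, the highest reading of the Y-linked Usp9y probe set.

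Rag1, a recombinase of lymphocytes, read 86.2, 138, 76.2 and 179 in controls, 19.6, 27.6, 8.77 and 6.81 in the Runx1 KO, 7.61 to 57.1 in the Foxl2 KO and 1.02 to 1.40 in the DKO. It fell by 2.08, 1.51 and 2.92 on the log2 scale (limma adjusted p = 0.0192, 0.0313 and 9.72e-05). For values this low the size depends on the offset. With an offset of 50 the differences were -1.34, -1.02 and -1.69, all called, and with an offset of 1 they were -2.97, -2.04 and -5.71, of which only that of the DKO was called (adjusted p = 0.120, 0.123 and 6.64e-05). Without Control 4 they were -1.89, -1.32 and -2.72 (0.0645, 0.101 and 0.000465), and only the DKO call stood. Runx1 KO ovary 4 had the lowest Rag1 of its group. The DKO values lay below the Y-linked background, as did those of Runx1 KO ovaries 1, 3 and 4 and of Foxl2 KO ovary 4. The medians of all 12, with Control 4 included, were -0.13, -0.18 and -0.38. The 10 blood cell markers summed to 2102 to 9184 in controls, 1986 to 3606 in the Runx1 KO, 2417 to 3533 in the Foxl2 KO and 1878 to 2882 in the DKO, and none of them was called.

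**Figure D5:**
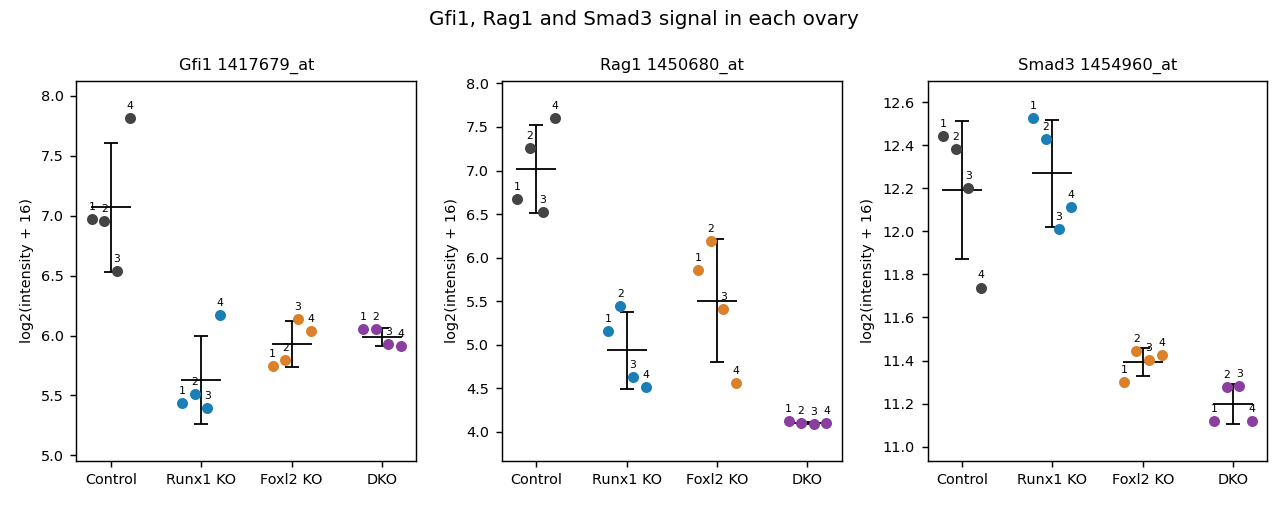
Gfi1, Rag1 and Smad3 signal as log2(intensity + 16) in each ovary, numbered by replicate, with bars for the mean ± SD of 4. Gfi1 is lower than every control in all 3 knockout groups, Rag1 likewise, and Smad3 in the Foxl2 KO and DKO, at 2206 to 2769 against 3402 to 5549 in controls.

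Several of these calls rested on all ovaries being present. Over the 16 fits that each left out 1 ovary, Gfi1 was called in 10 (Runx1 KO), 11 (Foxl2 KO) and 9 (DKO), and Rag1 in 11, 12 and 16. Gfi1 was lost without Control 1 or 2 in all 3 comparisons. In the Runx1 KO it was also lost without its ovary 1, 2 or 3 or DKO 3, in the Foxl2 KO without its ovary 1, 2 or 4, and in the DKO without Control 4 or any 1 DKO ovary. Rag1 was lost in the Runx1 KO and Foxl2 KO without Control 2 or 4, and without ovary 1, 3 or 4 of the first and 3 or 4 of the second. The highest adjusted p were 0.135, 0.0839 and 0.0846 for Gfi1 and 0.0914, 0.101 and 0.000685 for Rag1. The differences stayed between -1.63 and -0.83 for Gfi1 and between -3.08 and -1.20 for Rag1.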

How the data were processed

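RNA from 16 single ovaries was measured on the Affymetrix Mouse Genome 430 2.0 array, 1 array per ovary. The deposited values are linear intensities per probe set, made by the authors with Affymetrix Expression Console 1.2. The summarisation algorithm is not given in the sources used here, and the mean after trimming 2% at each end was 500.002 on every array. The study's own test used log2 values from another program. Depth has no meaning here, and the number of arrays limits the precision.

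Of 45101 probe sets, 64 controls were dropped. Of the 45037 left, 34945 had 1 gene in the annotation, 932 had several and 9160 had none. After an offset of 16, log2 values entered a limma 3.58.1 model of 4 group means (R 4.3.3), with 12 residual and 3.67 prior degrees of freedom. Tests were two-sided with Benjamini-Hochberg adjustment over all probe sets within a comparison. Where 1 probe set had to stand for a gene, it was the brightest on average. The fit was tested on simulated data.

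All probe sets of the 7 genes are described, and from each list the genes called (at most 4) or that with the smallest p. The members and lists were chosen with earlier results of these data known. Motif searches used RefSeq windows. Alternatives covered scaling, offset, probe set choice, level filter, prior, array weights, a block for the replicate number, the groups in the fit, the call rule and leaving out each ovary. Leaving out Control 4 and Runx1 KO 4 together was added after the data were seen, as were the Y-linked background's median and the alternatives for Gfi1, Rag1 and Smad3. Each ovary was counted as 1 replicate, as the labels do.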

Additional observations from a re-analysis of the deposited data

Results flagged for a closer look

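In each of the 4 groups and for each of the 22 probe sets, the ovary farthest from the rest was set against the range of its group on the log2 scale. In 3 of 88 such groups the gap was past the 95% limit of Dixon's ratio, which chance passes in about 1 of 20 groups. In the DKO, ovary 4 was low for Cbfb (2525), with a gap of 0.875 of the range. In controls, ovary 3 was low for Runx1t1 1437784_at (954), with a gap of 0.944 of the range. In the Foxl2 KO, ovary 1 was low for Cbfa2t3 1438705_at (229), with a gap of 0.877 of the range.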

How the results depend on the processing

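Of 969 values recomputed under other settings, 928 kept their side of the threshold or their count, 21 single differences moved past it, and 20 counts of called probe sets moved away from 0. No called difference changed sign. All moves in the limma fits came from Runx1t1 but for 1 Runx1 probe set. In the Foxl2 KO against control, 1 of the 22 probe sets was called with equal array medians, above the median level or with a trended robust prior, and 2 with array weights. In the DKO against control, 1 was called with equal array medians, an offset of 50, 1 probe set per gene, the upper part by level, the trended robust prior, array weights and the replicate block. The rule of the study's analysis of variance (unadjusted p, 1.5-fold minimum) was also applied, here to log2 values of the deposited intensities. The study's own test used log2 values from another program. Under this rule the counts were 4 in the Runx1 KO, 2 in the Foxl2 KO and 2 in the DKO. They were 2 in the DKO against the Runx1 KO and 3 in the interaction, and after Benjamini-Hochberg 0 in each. The share of all probe sets under the unadjusted rule is not given here, so these counts cannot be set against a background. Leaving out 1 ovary gave counts of 0 to 1 in the Foxl2 KO, the DKO and the DKO against the Runx1 KO. The 1 came without Runx1 KO ovary 4 in all 3 and without DKO ovary 4 in the DKO. The cause was not tested. Equal array medians moved the median of all probe sets by less than 0.1.

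With the replicate number as a block, Runx1t1 in the DKO had an adjusted p of 0.0434. The numbers do not pair the ovaries: of 24 pairs of ovaries with the same number in different groups, 1 had a residual correlation over 0.1, and the median was -0.01. Gfi1, Rag1 and Smad3 stayed lower in every setting in the comparisons where they were called, with Gfi1 not called in any comparison when only the groups compared were fitted or under the analysis of variance after Benjamini-Hochberg. Rag1 was not called under these 2 settings, an offset of 1 or without both Control 4 and Runx1 KO 4 in the Runx1 KO and Foxl2 KO. Smad3 was not called in the Foxl2 KO when only the groups compared were fitted. The wide intervals on Runx3 and on the dim Runx1 probe sets, close to background, limit what these arrays can show of them.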
